A study of Mus musculus with 21 samples.

Results

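The 8 genes described here encode the surfactant proteins (Sftpa1, Sftpb, Sftpc, Sftpd), the secretoglobins of airway secretory cells (Scgb1a1, Scgb3a2), the receptor RAGE (Ager) and the tight junction protein claudin 18 (Cldn18). They were chosen by symbol as genes of the alveolar and airway epithelium, and all 8 were among the 23420 gene rows of the count table. Their counts were read in 21 libraries of inflammatory monocytes (IMs) in 5 groups. The IMs had been enriched with a magnetic kit and sorted by flow cytometry as CD45+ CD11b+ Ly6G- Ly6C hi cells, and Siglec-F+ cells were also gated out according to the study's methods.

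Tumor IMs (TIMs) came from KAL-LN2-E1 (LN2E1) primary lung tumors (n = 5) and from the lymph node metastases of that model (n = 5), both in FVB mice that had received 500000 cells each by orthotopic injection into the lung. TIMs also came from the lungs of DBA2 mice given 300000 LN4K1 cells each by vein (n = 5). LN2E1 is a metastatic mouse lung squamous carcinoma line obtained from the KAL line by passage in mice, and LN4K1 was derived from the mouse line KLN-205. Control IMs came from the bone marrow (BM IMs) of FVB mice (n = 3) and of DBA2 mice (n = 3) without tumors. The labels give neither age nor sex. The methods call the libraries of a group technical replicates, so the p-values below measure only the spread between these samples.

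Each library held between 80772922 and 101043568 counts. Levels are given as CPM, the counts of a gene relative to the library total, scaled with TMM factors over the 21 libraries. The summed level of 7 monocyte and sort markers, among them Lyz2, Ly6c2 and Ccr2, was at least 38137 CPM in every library. LN4K1 lung TIM library 3 stood apart from the other 4 of its group. Its summed level of 8 epithelial genes (Epcam, the keratins Krt8, Krt18 and Krt19, and others) was 1.36 CPM, against 92.4 to 175 CPM in the other 4, and its summed monocyte level was 122130 CPM, against 68007 to 82910 CPM. The 7 markers did not all follow this sum: Csf1r was lowest of the group in library 3, at 785 CPM, with a group median of 2001 CPM. In bulk libraries such as these, fewer cells of a type and less RNA per cell cannot be told apart.

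Surfactant is the film of lipid and protein that lowers surface tension in the alveoli. Type II alveolar (AT2) cells make it: SP-B and SP-C, encoded by Sftpb and Sftpc, are small hydrophobic proteins of the film, and SP-A and SP-D, encoded by Sftpa1 and Sftpd, are collectins that bind microbes. Club cells of the small airways secrete the secretoglobins, and flat type I alveolar (AT1) cells carry most of the lung's RAGE. In the lung epithelium these genes depend on transcription factors such as NKX2-1 and members of the forkhead family, and monocytes are not known as a source of surfactant.

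Upstream sequences from RefSeq (build GRCm38.p6) matched 4 of the 8 genes (Sftpa1, Sftpb, Ager, Cldn18). The 250 bases before the start of 3 of them are shown because Sftpa1 and Sftpb are 2 of the surfactant genes the results turn on, and Ager was the one of the 3 with counts in every marrow library. Capitals mark matches, on either strand, to 3 short motifs. A TATA-box core was searched as CTATAA. The core of NKX2-1 sites was searched as CTCAAG. The forkhead core was searched as TGTTTG. No matches overlapped.
Sftpa1 (chr14:41131538-41131787, + strand): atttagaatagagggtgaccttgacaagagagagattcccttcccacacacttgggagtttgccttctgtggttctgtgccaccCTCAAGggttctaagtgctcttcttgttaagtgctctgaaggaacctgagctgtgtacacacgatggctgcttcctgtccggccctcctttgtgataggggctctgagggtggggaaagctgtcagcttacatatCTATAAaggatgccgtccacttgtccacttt
Sftpb (chr6:72304360-72304609, + strand): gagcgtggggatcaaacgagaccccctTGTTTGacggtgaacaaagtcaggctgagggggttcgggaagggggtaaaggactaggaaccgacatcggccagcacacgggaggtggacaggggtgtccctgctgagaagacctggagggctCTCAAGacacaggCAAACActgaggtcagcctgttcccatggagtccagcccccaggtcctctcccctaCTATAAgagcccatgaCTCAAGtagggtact
Ager (chr17:34597600-34597849, + strand): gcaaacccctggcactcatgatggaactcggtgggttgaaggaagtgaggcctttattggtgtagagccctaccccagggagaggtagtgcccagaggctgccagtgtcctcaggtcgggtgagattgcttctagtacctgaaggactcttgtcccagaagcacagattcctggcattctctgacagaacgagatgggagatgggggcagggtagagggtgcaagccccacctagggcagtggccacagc
The TATA-box core began 31 bases before the start in both Sftpa1 and Sftpb. Among 32851 mouse promoters in the same window, 7.26% held the TATA-box core, 13.3% the NKX2-1 core and 16.0% the forkhead core. Sftpa1 held the NKX2-1 core once, 166 bases before its start. Sftpb held the NKX2-1 core at 100 and at 15 bases and the forkhead core at 223 bases and, on the reverse strand, at 87 bases before its start. These letters did not occur in the window of Ager. Each of the 2 windows of Cldn18 held the forkhead core once. A match is only a description of the sequence.

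The 8 genes had their highest mean levels in the TIMs of LN2E1 primary tumors and lower ones in those of LN4K1 lung metastases. They were near 0 in TIMs of lymph node metastases and in BM IMs, except that Scgb1a1 and Ager had counts in every marrow library. Summed over the 8, primary tumor TIMs held 430 ± 321 CPM (SD, n = 5) and LN4K1 lung TIMs held 41.4 ± 41.5 CPM (n = 5). The sum was 0.520 ± 0.438 CPM (n = 5) in lymph node TIMs, 2.01 ± 0.760 CPM (n = 3) in FVB BM IMs and 1.55 ± 0.229 CPM (n = 3) in DBA2 BM IMs. The 8 genes together took at most 0.0923% of the counts of any library.

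**Figure D1:**
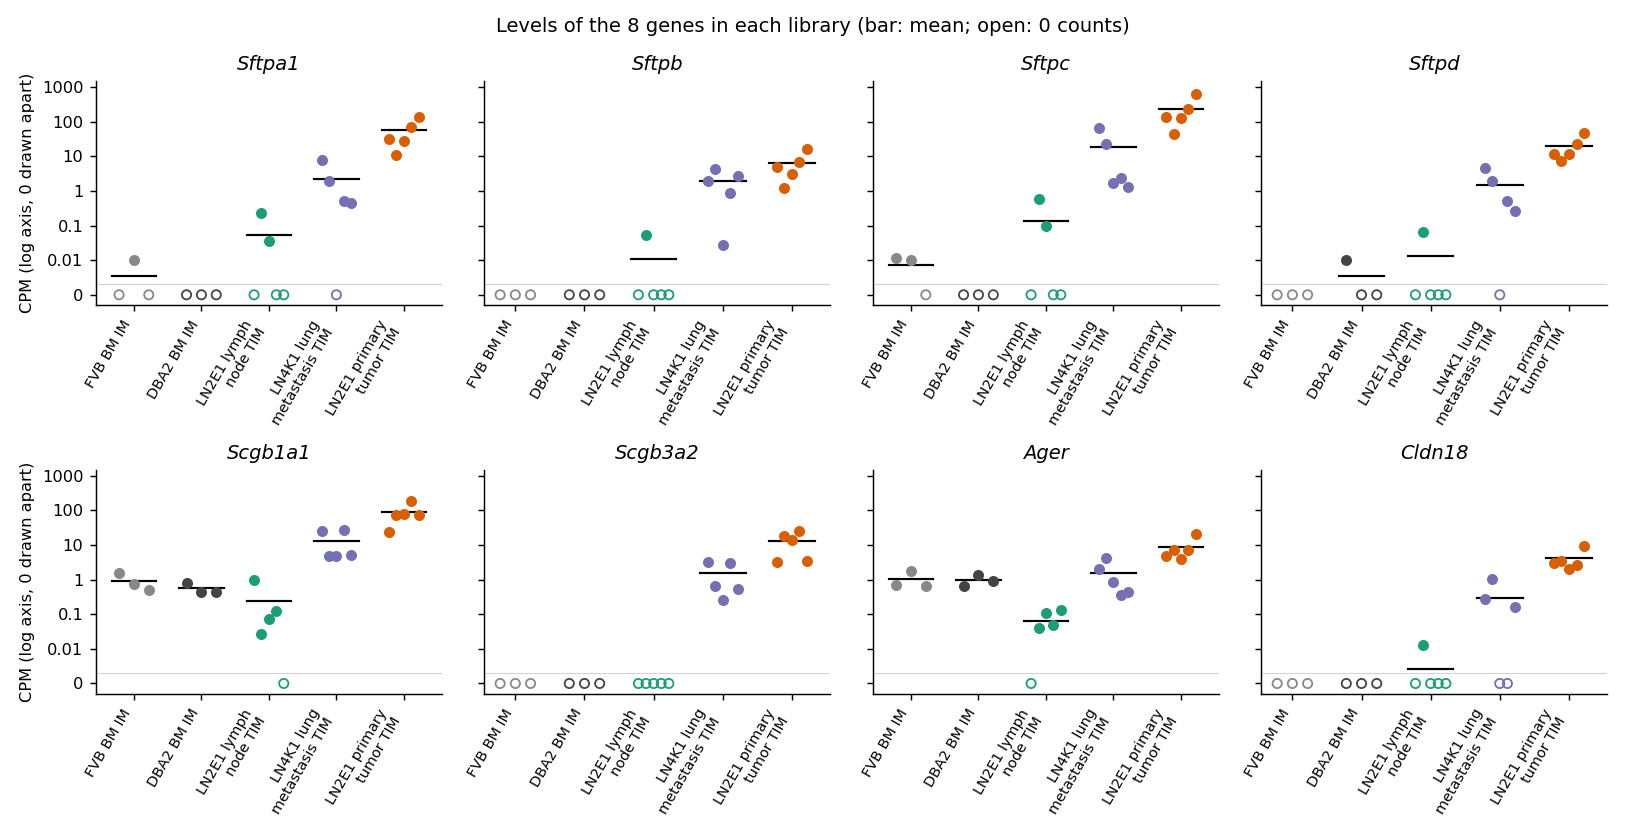
Levels of the 8 genes (CPM, log axis) in the 21 libraries, 1 point per library, with the mean of each group as a bar and libraries at 0 counts drawn as open points at the foot. Primary tumor TIMs have the highest mean for each gene, with Sftpc between 43.5 and 624 CPM, and Scgb3a2 is at 0 in all marrow and lymph node libraries.

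Sftpc, whose transcript is a classical AT2 marker, had the highest mean CPM of the members in primary tumor TIMs. Its levels were 140, 43.5, 125, 237 and 624 CPM in libraries 1 to 5 of that group and 65.5, 23.4, 1.66, 2.38 and 1.27 CPM in LN4K1 lung TIMs. Lymph node libraries 2 and 3 held 43 and 8 counts and the other 3 held 0. FVB BM IMs held 2 counts in all and DBA2 BM IMs 0. The 2 groups from lung were thus above marrow in every library, but LN4K1 lung library 1 exceeded primary tumor library 2. Sftpc lies on chromosome 14 (GRCm38, 70520949 to 70524081, minus strand), 715 bases from Bmp1, with no exon shared with another gene.

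Sftpa1, encoding the collectin SP-A, was at 31.8, 10.7, 27.8, 69.1 and 141 CPM in primary tumor TIM libraries 1 to 5. Its levels in LN4K1 lung TIMs were 8.01, 1.97, 0, 0.528 and 0.446 CPM. All primary tumor libraries lay above all LN4K1 lung libraries. Lymph node libraries 2 and 3 held 18 and 3 counts, and marrow held 1 count in 6 libraries. Sftpa1 (chromosome 14, 41131782 to 41136452, plus strand) and Sftpd (chromosome 14, 41172214 to 41185149, minus strand) are neighbors in the collectin cluster and share no exon.

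Sftpd, encoding the collectin SP-D, followed the same order, with 11.5, 7.40, 11.6, 22.5 and 46.3 CPM in primary tumor TIMs and 4.75, 1.97, 0, 0.507 and 0.257 CPM in LN4K1 lung TIMs. The 2 groups did not overlap. Lymph node library 2 held 5 counts and DBA2 BM IM library 1 held 1 count, and the other lymph node and marrow libraries held none.

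Sftpb (chromosome 6, 72304610 to 72314371, plus strand), encoding SP-B, which the surfactant film cannot do without, did not separate the 2 groups from lung. It was at 4.96, 1.24, 3.05, 7.00 and 16.6 CPM in primary tumor TIMs and at 1.89, 4.44, 0.0270, 0.900 and 2.74 CPM in LN4K1 lung TIMs. These ranges overlapped. Lymph node library 2 held 4 counts, and every marrow library held 0.

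Scgb1a1, the club cell secretory protein (chromosome 19, 9083636 to 9087958, minus strand), is a standard marker of the small airways. It was at 23.7, 74.3, 78.8, 187 and 74.7 CPM in primary tumor TIMs and at 24.9, 4.73, 4.79, 27.7 and 5.22 CPM in LN4K1 lung TIMs. Only LN4K1 libraries 1 and 4 reached the lowest primary tumor library. Unlike the surfactant genes it had counts in each marrow library, at 1.57, 0.764 and 0.491 CPM in FVB BM IMs and 0.811, 0.429 and 0.433 CPM in DBA2 BM IMs. In lymph node TIMs it was at 0.981 CPM in library 1 and between 0 and 0.123 CPM in the other 4.

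Scgb3a2, a secretoglobin of airway secretory cells (chromosome 18, 43764289 to 43767399, plus strand), was at 3.31, 18.7, 13.7, 25.8 and 3.52 CPM in primary tumor TIMs and at 3.20, 0.654, 0.257, 2.99 and 0.524 CPM in LN4K1 lung TIMs. The 2 groups did not overlap, though LN4K1 library 1 lay just under primary tumor library 1. All 11 marrow and lymph node libraries held 0 counts. In libraries from lung Scgb3a2 counts were 4.71% to 25.1% of Scgb1a1 counts. FVB BM IMs held 268 Scgb1a1 counts with no Scgb3a2, which allows a share of up to 1.12%, and DBA2 BM IMs held 163, which allows up to 1.84%. The Scgb1a1 counts of marrow thus came without the share of Scgb3a2 that accompanied them in lung. These limits cover counting error only.

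Ager (chromosome 17, 34597862 to 34600936, plus strand) was at 4.69, 7.11, 3.90, 7.06 and 20.7 CPM in primary tumor TIMs and at 1.97, 4.18, 0.837, 0.352 and 0.446 CPM in LN4K1 lung TIMs. It was also present in marrow, at 0.705, 1.81 and 0.661 CPM in FVB BM IMs and 0.637, 1.38 and 0.940 CPM in DBA2 BM IMs. Lymph node TIMs were the lowest group, with 0, 0.0397, 0.107, 0.0493 and 0.131 CPM. Ager lies 155 bases from Rnf5 without a shared exon, and reads were not assigned to a strand.

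Cldn18, a claudin of alveolar epithelium (chromosome 9, 99689461 to 99717267, minus strand), was at 3.09, 3.43, 2.06, 2.60 and 9.50 CPM in primary tumor TIMs and at 0.278, 1.04, 0, 0 and 0.167 CPM in LN4K1 lung TIMs. The 2 groups did not overlap. It was at 0 counts in all marrow libraries and at 1 count in lymph node TIMs. Cldn18 counts were 36.8% to 66.0% of Ager counts in primary tumor TIMs. The 314 Ager counts of FVB BM IMs came with no Cldn18 count, which allows a share of up to 0.955%, and the 289 of DBA2 BM IMs likewise allow up to 1.04%. In LN4K1 lung TIMs the share ran from 0% to 37.5%, and libraries 3 and 4 held 62 and 34 Ager counts with no Cldn18. Ager counts without Cldn18 thus occurred in marrow and in 2 of the lung libraries. The span of Cldn18 overlaps that of Gm16004, with no exon in common.

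Levels of different genes can be compared only per length, here as CPM per kb of exon. In primary tumor TIMs the order of these levels was Sftpc (226 ± 221, SD), Scgb1a1 (184 ± 126), Sftpa1 (19.6 ± 18.2), Scgb3a2 (14.8 ± 11.1), Sftpd (8.22 ± 6.55), Ager (4.06 ± 3.21), Sftpb (3.34 ± 3.04) and Cldn18 (0.928 ± 0.683), with n = 5 each. Each neighbor in this order overlapped the next, apart from Scgb1a1 and Sftpa1. Sftpc was above Scgb1a1 per length in only 2 of the 5 libraries. Scgb1a1 led in LN4K1 lung TIMs with 28.3 ± 24.7 CPM per kb, followed by Sftpc with 18.2 ± 26.8, Scgb3a2 with 1.73 ± 1.64 and Sftpb with 1.02 ± 0.867, and all of these neighbors overlapped. Sftpb thus ranked 4 of 8 in LN4K1 lung TIMs and 7 of 8 in primary tumor TIMs.

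The balance of alveolar and airway genes varied among the libraries from lung. In primary tumor TIMs library 5 was highest for the 4 surfactant genes, Ager and Cldn18, whereas library 4 was highest for both secretoglobins. LN4K1 lung library 1 was highest of its group for Sftpc, Sftpa1, Sftpd and also Scgb3a2 (3.20 CPM, with 2.99 CPM in library 4), whereas library 4 was highest for Scgb1a1 and held 2.38 CPM of Sftpc. The ratio of Sftpc to Scgb1a1 counts was 5.91, 0.585, 1.59, 1.26 and 8.35 in primary tumor libraries 1 to 5 and 2.63, 4.96, 0.346, 0.0859 and 0.244 in LN4K1 lung libraries 1 to 5. The ratio of summed surfactant to summed secretoglobin counts, on the log2 scale, was 1.43 ± 1.63 in primary tumor and -0.12 ± 2.20 in LN4K1 lung TIMs (n = 5 each). This difference was within the spread (two-sided exact permutation test, p = 0.246, adjusted p = 0.405 over the 6 make-up measures tested).

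**Figure D2:**
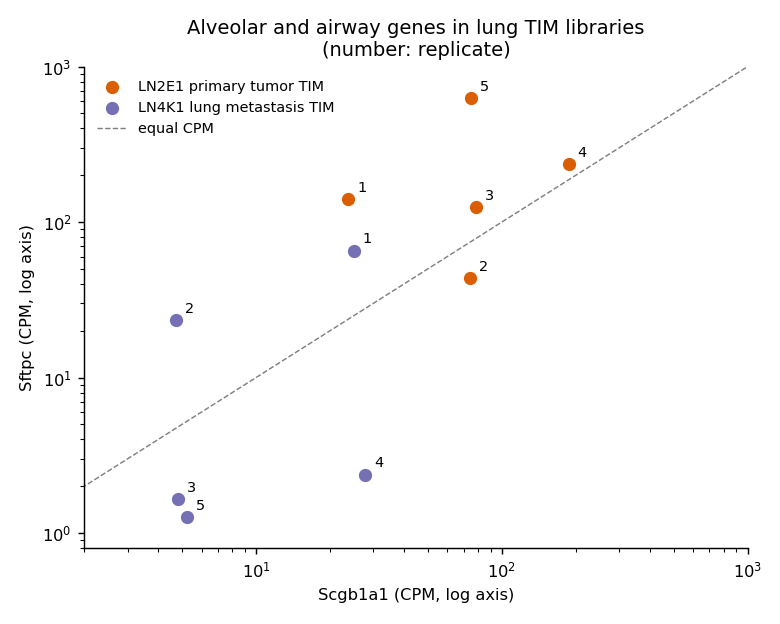
Sftpc against Scgb1a1 (CPM, log axes) in the 10 TIM libraries from lung, numbered by replicate, with a dashed line at equal CPM. LN4K1 lung library 4 holds 27.7 CPM of Scgb1a1 with 2.38 CPM of Sftpc, and primary tumor library 5 holds 74.7 CPM of Scgb1a1 with 624 CPM of Sftpc.

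The make-up of the surfactant counts, not corrected for gene length, spanned narrow ranges in primary tumor TIMs and wide ones in LN4K1 lung TIMs. In primary tumor TIMs Sftpc made 69.2% to 75.3% of the surfactant counts, Sftpa1 16.6% to 20.6%, Sftpd 5.60% to 11.8% and Sftpb 1.82% to 2.63%, although the summed counts ranged from 5558 to 71219. In LN4K1 lung TIMs Sftpb made 2.36% (95% Wilson interval 2.03 to 2.74) in library 1, 14.0% (12.8 to 15.2) in library 2, 1.60% (0.440 to 5.65) in library 3, 20.9% (17.2 to 25.0) in library 4 and 58.2% (53.4 to 62.8) in library 5. Libraries 2, 4 and 5 thus lay above all primary tumor libraries by more than the counting error. The mean share of Sftpb, 19.4% ± 23.1 in LN4K1 lung and 2.10% ± 0.311 in primary tumor TIMs, did not pass the exact permutation test (p = 0.111, adjusted p = 0.333). The share of Sftpa1 was lower in LN4K1 lung TIMs, at 7.58% ± 4.75 against 17.6% ± 1.68 in primary tumor TIMs (exact permutation test, p = 0.00794, the smallest that 5 against 5 can give, adjusted p = 0.0476). The mean shares of Sftpc (67.2% ± 27.3 against 72.8% ± 2.77, adjusted p = 0.698) and Sftpd (5.86% ± 4.16 against 7.42% ± 2.50, adjusted p = 0.429) and the share of Scgb3a2 relative to Scgb1a1 (10.6% ± 3.29 against 15% ± 7.35, adjusted p = 0.405) did not pass the same exact permutation test. Library 3 of LN4K1 lung rests on 125 surfactant counts, of which Sftpa1 and Sftpd made none.

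**Figure D3:**
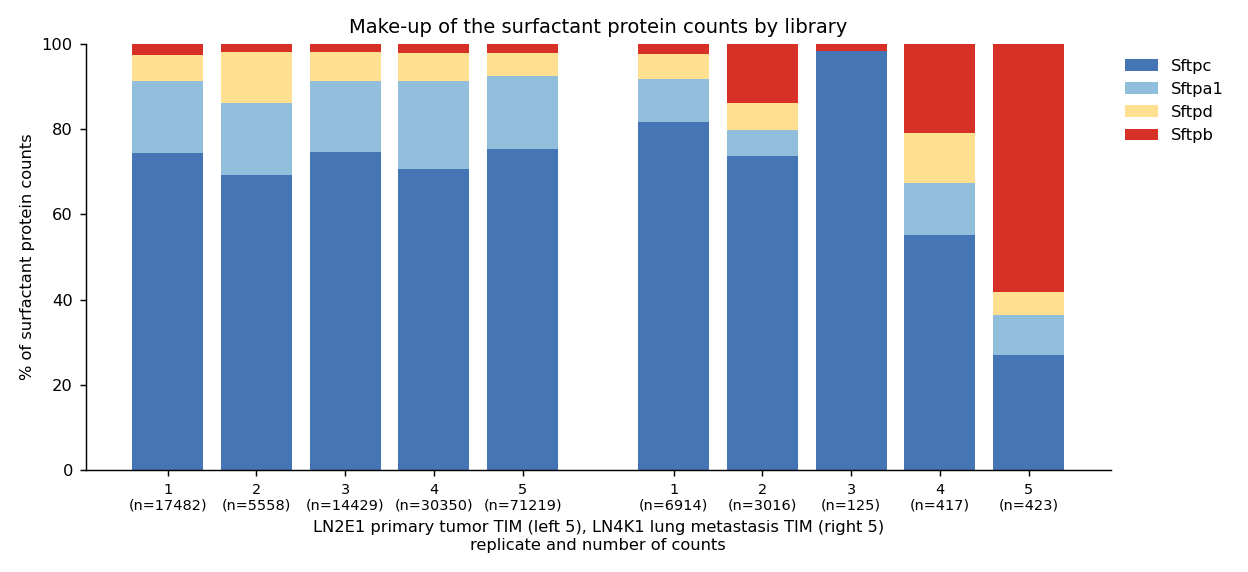
Share of each surfactant gene in the surfactant protein counts of the 10 TIM libraries from lung (percent), with the number of counts under each bar. Sftpb makes 1.82% to 2.63% in primary tumor libraries and up to 58.2% in LN4K1 lung libraries.

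To ask how TIMs of primary tumors differed from IMs of healthy marrow in the same strain, edgeR's quasi-likelihood test was fitted over 14569 genes with Benjamini-Hochberg adjustment. All 8 members rose in primary tumor TIMs at an adjusted p under 0.05, where 33.3% of all genes tested rose, and no member overlapped between the groups, where 30.7% of all genes did not and lay higher. The study set a stricter threshold for a differentially expressed gene (DEG, adjusted p under 0.0001 and absolute log2 fold change above 1) and applied it to DESeq2. Applied here to edgeR, this threshold made 2 members DEGs, Sftpa1 (edgeR's adjusted p = 7.97e-05) and Sftpc (4.43e-05), beside 7.72% of all genes that were DEGs and higher. Cldn18 (0.000101) and Scgb1a1 (0.000102) lay just past the threshold. Scgb1a1 rose by 6.54 ± 0.79 (log2, SE) and Ager by 3.01 ± 0.65 (edgeR's adjusted p = 0.00305). Sftpb was at least 652-fold, Sftpd at least 1973-fold, Scgb3a2 at least 1291-fold and Cldn18 at least 411-fold higher, against the limit of 3 counts over the 3 marrow libraries, which held none. Pooled rates of Sftpa1 stood in a ratio of 16583 (95% exact interval 2976 to 655009) on 1 marrow count, and those of Sftpc in a ratio of 34493 (9548 to 284823) on 2. The median log2 fold change over the 8 was 12.73 as fitted and 9.84 with these genes at their bound or ratio, beside 0.08 over all genes tested. These medians and the numbers of members called are descriptions, since 6 of the 8 passed the count filter only through their TIM counts. For these 6 a rise was the difference the filter allowed. The two-sided exact permutation test gave p = 0.0357 for each gene, with every primary tumor library above every marrow library, the most extreme split.

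The count of DEGs among the members turned on single libraries. It was 0 without any one of the 3 FVB BM IM libraries, 1 without primary tumor library 3 or 4, and 4 without library 5. DESeq2 called all 8 as DEGs with shrunken fold changes, the form the study used, and with unshrunken ones. In either case it called 18.8% of all genes as DEGs and higher. All 8 stayed at an adjusted p under 0.05 when any one library was left out. Without primary tumor library 5 the log2 fold change of Ager was 2.41 and without FVB BM IM library 2 it was 3.67, and that of Scgb1a1 was 7.14 without FVB BM IM library 1. The same TIM libraries held fibroblast transcripts. The summed level of 11 fibroblast genes, among them the collagens Col3a1 and Col1a2 and the proteoglycan Dcn, was 384 to 1137 CPM in primary tumor TIMs and 5.25 to 9.16 CPM in FVB BM IMs. The part of tissue RNA carried through the sort in these results was not tested.

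The same question in the LN4K1 model, against DBA2 BM IMs, gave a smaller and less even difference. Over 13624 genes tested, 6 of 8 members rose at an adjusted p under 0.05 (Scgb1a1, Scgb3a2, Sftpb, Sftpc, Sftpd and Sftpa1), where 13.9% of all genes rose. In 4 of the 8 the groups did not overlap (Sftpb, Sftpc, Scgb1a1 and Scgb3a2), where 19.9% of all genes did not and lay higher. All members but Scgb1a1 and Ager passed the count filter only through their TIM counts, so a rise was the difference the filter allowed for them. The numbers of members called and the medians in this comparison are therefore descriptions. Scgb1a1 rose by 4.52 ± 0.86 (log2, SE, edgeR's adjusted p = 0.00428). Sftpc was at least 1837-fold higher (edgeR's adjusted p = 0.0189), Sftpa1 at least 214-fold (0.0393), Sftpb at least 195-fold (0.0123) and Scgb3a2 at least 149-fold (0.00578), against the limit of 3 counts over the 3 marrow libraries. For Sftpd the ratio of pooled rates was 443 (79.3 to 17527) on 1 marrow count, with edgeR's adjusted p = 0.0282. Cldn18 was at 0.298 ± 0.434 CPM against 0 (edgeR's adjusted p = 0.0980). Ager was at 1.56 ± 1.60 CPM (n = 5) against 0.984 ± 0.372 CPM (n = 3), a log2 difference of 0.60 ± 0.84 within the spread (edgeR's adjusted p = 0.661). The median log2 fold change of the members was 9.17 as fitted and 7.41 with bounds, beside 0.03 over all genes.

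None of the members was a DEG by edgeR in the LN4K1 model, where 1.21% of all genes were DEGs and higher. At an unadjusted p under 0.05 edgeR called 7 members, and DESeq2 gave 3 DEGs with shrunken fold changes (5.72% of all genes, higher) and 5 with unshrunken ones (6.41%). Leaving out any one of the 3 DBA2 BM IM libraries left 3 members called, with edgeR's adjusted p between 0.0516 and 0.0559 for Sftpc, 0.0927 and 0.105 for Sftpd and 0.0949 and 0.101 for Sftpa1. Sftpa1 also missed the threshold without LN4K1 lung library 1, 2, 4 or 5, with edgeR's adjusted p between 0.0558 and 0.0605, and Sftpd missed it without library 1 (0.0525). Without library 3, the one that stood apart, 7 members were called, Cldn18 among them (edgeR's adjusted p = 0.0378; range over its alternatives 0.0135 to 0.337, the last by DESeq2). Without library 2, which held the most Ager, the log2 difference of Ager turned to -0.18.

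To ask how TIMs of the metastasis outside the lung differed from those of the primary tumor in the same strain and with the same cell line, lymph node TIMs were compared with primary tumor TIMs over 13488 genes. All 8 members were lower in lymph node TIMs at an adjusted p under 0.05, where 5.55% of all genes were lower. None overlapped between the groups, where 8.84% of all genes did not and lay lower. All 8 passed the count filter only through their primary tumor counts, so a lower level was the difference the filter allowed. The numbers of members called and the medians in this comparison are therefore descriptions. The difference, as a log2 fold change with its SE, was -10.82 ± 1.17 for Sftpc, -10.02 ± 1.11 for Sftpa1, -10.47 ± 1.01 for Sftpd, -9.14 ± 1.26 for Sftpb, -8.49 ± 1.02 for Scgb1a1 and -7.01 ± 0.87 for Ager. Scgb3a2 was at least 1766-fold lower, and the ratio of pooled rates of Cldn18 was 1671 (299 to 66019) on 1 lymph node count. Adjusted p-values from edgeR lay between 0.000282 for Sftpd and 0.00150 for Sftpb. The median log2 fold change was -10.02 as fitted and -10.24 with bounds, beside -0.03 over all genes, and the exact permutation test gave p = 0.00794 for each gene, the smallest it can give.

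No member reached the DEG threshold by edgeR in this comparison, where only 0.0297% of all genes were DEGs and lower. At an unadjusted p under 0.05 edgeR called all 8, and DESeq2 gave 4 DEGs with shrunken fold changes (1.22% of all genes, lower) and 8 with unshrunken ones (2.46%). With shrunken fold changes DESeq2 gave -0.57 for Sftpa1 (adjusted p = 0.0543) and -0.39 for Sftpc (adjusted p = 0.154), and the other 6 had an adjusted p under 0.05, as did 7.87% of all genes, lower. The few surfactant counts of lymph node TIMs came almost wholly from library 2, which held 70 of them. Their make-up was 61.4% Sftpc (95% Wilson interval 49.7 to 72.0), 25.7% Sftpa1 (16.9 to 37.0), 7.14% Sftpd (3.09 to 15.7) and 5.71% Sftpb (2.24 to 13.8). In the pooled primary tumor counts these shares were 73.9%, 17.8%, 6.29% and 2.08%. Without library 2 the log2 fold changes were -13.15 for Sftpc, -12.37 for Sftpa1, -13.73 for Sftpd, -12.14 for Sftpb and -11.47 for Cldn18. Without lymph node library 1, which held 81 of the 99 Scgb1a1 counts and no surfactant count, that of Scgb1a1 was -10.58. Without primary tumor library 5 they were -10.04 for Sftpc, -9.33 for Sftpa1, -9.88 for Sftpd, -8.44 for Sftpb and -6.41 for Ager.

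Against FVB BM IMs, only Ager and Scgb1a1 were tested, among 13273 genes, and both passed the count filter through their marrow counts (314 and 268), so a lower level was the difference the filter allowed. Sftpc, with 51 lymph node and 2 marrow counts, did not pass it. Ager fell in lymph node TIMs, by a log2 fold change of -3.99 ± 1.26 (SE, edgeR's adjusted p = 0.0310), where 17.2% of all genes fell. The groups did not overlap for Ager, where 22.8% of all genes did not and lay lower. Scgb1a1 stood at -1.95 ± 1.52 (edgeR's adjusted p = 0.357). Ager lost its call without FVB BM IM library 1 (edgeR's adjusted p = 0.0786), 2 (0.164) or 3 (0.0615) and without lymph node library 2 (0.0571) or 4 (0.0591). Its log2 fold change was -3.37 without FVB BM IM library 2. Scgb1a1 passed without lymph node library 1, with a log2 fold change of -4.05 and edgeR's adjusted p = 0.0281 (range over its alternatives 0.0281 to 0.664). The other 6 members held at most 51 counts over the 5 lymph node libraries, and a difference from marrow was not detectable for Cldn18 and Scgb3a2 at this depth.

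LN4K1 lung TIMs were also set against LN2E1 primary tumor TIMs, a comparison added after the data were seen, in which strain, cell line, route of injection and kind of tumor cannot be told apart. Over 13845 genes tested, 7 of 8 members were lower in LN4K1 lung TIMs at an adjusted p under 0.05, where 20.4% of all genes were lower. In 4 of them (Sftpa1, Sftpd, Scgb3a2, Cldn18) the groups did not overlap, where 17.5% of all genes did not and lay lower. Sftpa1, Sftpb, Sftpd and Cldn18 were under the minimum count in LN4K1 lung library 3 and passed the count filter only through their primary tumor counts. For them the filter favored a lower level. The numbers of members called and the median in this comparison are therefore descriptions. The log2 fold change was -4.68 ± 1.18 for Sftpa1 (SE, edgeR's adjusted p = 0.00895), -3.79 ± 1.15 for Cldn18 (0.0217), -3.73 ± 1.06 for Sftpd (0.0158) and -3.63 ± 1.17 for Sftpc (0.0279). It was -3.10 ± 0.82 for Scgb3a2 (edgeR's adjusted p = 0.0112), -2.71 ± 0.67 for Scgb1a1 (0.00838) and -2.48 ± 0.73 for Ager (0.0184). Sftpb stood at -1.73 ± 0.91 and did not pass (edgeR's adjusted p = 0.148). The median over the 8 was -3.36, beside -0.03 over all genes.

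**Figure D4:**
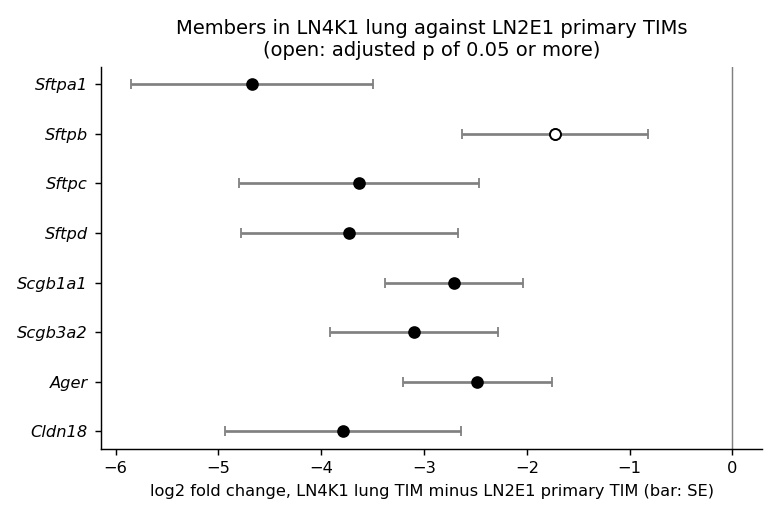
Log2 fold change of each member between LN4K1 lung TIMs and LN2E1 primary tumor TIMs (n = 5 each), with its SE as a bar and a filled point where edgeR's adjusted p was under 0.05. The values run from -4.68 for Sftpa1 to -1.73 for Sftpb, the one open point.

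No member was a DEG by edgeR here, where 1.86% of all genes were DEGs and lower. At an unadjusted p under 0.05 edgeR called 7, and DESeq2 gave 1 DEG, Scgb3a2, with shrunken fold changes (7.81% of all genes, lower) and with unshrunken ones (8.13%). Without primary tumor library 5, the highest for 6 members, 4 members were called, and Sftpc (-2.86, edgeR's adjusted p = 0.0710), Ager (-1.87, 0.0548) and Cldn18 (-3.23, 0.0642) were not. The log2 fold change of Sftpa1 was then -3.99 and that of Sftpb -1.04. Without LN4K1 lung library 3 Sftpc had an adjusted p of 0.0541 by edgeR. Without LN4K1 lung library 1 the log2 fold changes were -6.25 for Sftpa1, -5.04 for Sftpc and -4.86 for Sftpd, and without library 2 they were -5.21 for Cldn18 and -3.28 for Ager.

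Whether the change from marrow differed between the 2 models was tested as an interaction over 15182 genes. It could be read only for Ager and Scgb1a1, since the other 6 members held at most 2 counts in either marrow group. The change in LN4K1 lung TIMs minus that in primary tumor TIMs was -2.43 ± 1.06 for Ager (log2, SE, edgeR's adjusted p = 0.101) and -2.03 ± 1.03 for Scgb1a1 (0.159). None of the members passed, where 26.5% of all genes did. At an unadjusted p under 0.05 edgeR called 1 member, Ager, and DESeq2 with unshrunken fold changes called Ager at an adjusted p under 0.05, as it did 32.9% of all genes. Without LN4K1 lung library 2 the value for Ager was -3.23 (edgeR's adjusted p = 0.0202; range over its alternatives 0.0202 to 0.215), without FVB BM IM library 2 it was -3.06 and without primary tumor library 5 it was -1.83.

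Other genes of the airway were read beside the secretoglobins. In this list and those below, genes at 0 counts in marrow, such as Bpifb1 and Cldn3, passed the count filter only through TIM counts. For such genes a rise over marrow was the difference the filter allowed. Where they were also near 0 in lymph node TIMs, only a level lower than in primary tumor TIMs was allowed there. The numbers of list genes called and their medians are therefore descriptions. Of 9 further club and secretory genes tested, 7 rose and none fell in primary tumor TIMs (median log2 fold change 12.17 as fitted, 9.28 with bounds), and 5 of 9 rose in LN4K1 lung TIMs (8.79 and 6.47). In lymph node TIMs 7 of 9 were lower than in primary tumor TIMs (-8.52 and -8.90). Scgb3a1, a secretoglobin of upper airways, was at 34.6 ± 19.5 CPM in primary tumor and 5.90 ± 6.83 CPM in LN4K1 lung TIMs. The antimicrobial lectin Reg3g was at 33.0 ± 26.7 and 4.32 ± 5.51 CPM, and the secreted airway protein Bpifb1 at 26.1 ± 24.5 and 2.31 ± 2.42 CPM. Each of these 3 rose in both groups against marrow of its strain. Of 8 ciliated cell genes, 7 rose in primary tumor TIMs (median 8.10 as fitted, 5.21 with bounds), and of 3 tested in LN4K1 lung TIMs 1 rose (median 0.27). Foxj1, the regulator of motile cilia, was at 1.27 ± 0.887 CPM in primary tumor TIMs and at 0 counts in marrow and lymph node libraries. The ciliated gene that rose in LN4K1 lung TIMs was Tppp3, a tubulin-binding protein whose mean was at least 35.0 CPM in each group, marrow included.

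The other alveolar genes gave a mixed picture, and several AT2 and AT1 markers were abundant in marrow. Against the 33.3% of all genes that rose and the 28.6% that fell in primary tumor TIMs, 6 of 9 further AT2 genes rose and 2 fell (median 1.17), and 5 of 8 further AT1 genes rose and 2 fell (median 5.36). In LN4K1 lung TIMs, where 1497 of 13624 genes tested fell, 1 of 7 AT2 genes rose and none fell (median -0.04), and 3 of 8 AT1 genes rose and 1 fell (median 1.12). Slc34a2, the phosphate carrier of AT2 cells, was at 20.4 ± 22.1 CPM in primary tumor TIMs, 0.656 ± 1.06 CPM in LN4K1 lung TIMs and 0 counts in marrow. The water channel Aqp5 was at 4.30 ± 2.40, 0.691 ± 0.603 and 0 CPM. By contrast the protease Napsa, which trims SP-B, had means of 569 to 901 CPM in the 5 groups, and the homeobox protein Hopx of 126 to 287 CPM. Of the surfactant processing genes, 3 of 6 rose and 2 fell in primary tumor TIMs (median 0.38), and none of 5 passed in LN4K1 lung TIMs by edgeR (median -0.09). Cathepsin H (Ctsh), another SP-B and SP-C protease, was at 1124 ± 83.4 CPM in LN4K1 lung TIMs and 389 ± 24.3 CPM in primary tumor TIMs. The marrows of the 2 strains also differed, with 864 ± 49.9 CPM in DBA2 and 489 ± 62.3 CPM in FVB BM IMs. Against its own marrow, the log2 fold change of Ctsh was 0.30 in LN4K1 lung TIMs (edgeR's adjusted p = 0.0609). It was -0.35 in primary tumor TIMs (edgeR's adjusted p = 0.0107). The lipid carrier Abca3 was at 41.9 to 79.0 CPM in the group means.

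Of the regulators of surfactant genes, 4 of 5 rose in primary tumor TIMs (median 8.46 as fitted, 5.57 with bounds) and 3 of 6 rose in LN4K1 lung TIMs (7.22 and 6.08). NKX2-1, whose gene Nkx2-1 stands at the head of the lung epithelial program, was at 0.993 ± 1.09 CPM in primary tumor and 0.888 ± 0.516 CPM in LN4K1 lung TIMs, and at 0 counts in all marrow and lymph node libraries. The 2 lung means of Nkx2-1 differed by less than their spread (log2 fold change -0.17, edgeR's adjusted p = 0.902). Of genes for the uptake and clearance of surfactant, which macrophages also use, 7 of 9 rose and 1 fell in primary tumor TIMs (median 1.64), and 2 of 9 rose in LN4K1 lung TIMs (median 0.20). The receptor subunit Csf2rb was at 167 ± 4.56 CPM (SD, n = 3) in FVB BM IMs and 633 ± 42.5 CPM (n = 5) in TIMs of primary tumors. Among the ligands of RAGE none of 6 rose and 3 fell in primary tumor TIMs (median -1.03), and 1 of 5 rose and 2 fell in LN4K1 lung TIMs (median -0.22). S100a9 was at 708 ± 135 CPM (n = 3) in FVB BM IMs and 98.3 ± 129 CPM (n = 5) in TIMs of primary tumors. Of the other tight junction genes all 6 rose in primary tumor TIMs (median 6.94 as fitted, 6.06 with bounds) and 3 of 5 in LN4K1 lung TIMs (median 5.09). Cldn3, a claudin of epithelia, was at 5.83 ± 3.57 CPM in primary tumor and 0.395 ± 0.512 CPM in LN4K1 lung TIMs.

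Markers of epithelium in general were read in the same libraries. All 8 pan-epithelial genes rose in primary tumor TIMs (median 8.31 as fitted, 6.74 with bounds), and 5 of 7 rose in LN4K1 lung TIMs (median 6.21). Keratin 19 (Krt19) was at 10.4 ± 3.41 CPM in primary tumor and 35.6 ± 24.9 CPM in LN4K1 lung TIMs, where library 3 held 8 counts. Keratin 8 (Krt8) was at 12.6 ± 5.57 and 22.5 ± 14.8 CPM. Between these 2 groups the log2 fold change of LN4K1 lung against primary tumor TIMs was 1.75 for Krt19 (edgeR's adjusted p = 0.127) and 0.82 for Krt8 (0.482), neither of which passed. The list was not uniform: the adhesion molecule Epcam was lower in LN4K1 lung TIMs, at 0.473 ± 0.483 against 5.21 ± 1.87 CPM (-3.48, edgeR's adjusted p = 0.00345), and Cdh1 (-1.25, 0.116) and the epithelial factor Elf3 (-2.22, 0.0615) did not pass. Of the 7 pan-epithelial genes tested there, 1 was lower and none higher (median -0.17). In lymph node TIMs, where 6.15% of all genes were higher and 5.55% lower than in primary tumor TIMs, 5 of 8 pan-epithelial genes were lower and none higher (median -5.60). E-cadherin (Cdh1) made most of the summed pan-epithelial level of lymph node TIMs, with a mean of 62.4 CPM. Its mean in primary tumor TIMs was 52.5 CPM, a difference that did not pass (edgeR's adjusted p = 0.797), nor did that of Epcam (0.218). Of the 3 pan-epithelial genes tested in lymph node TIMs against FVB BM IMs, Cdh1 and Epcam rose (edgeR's adjusted p = 0.000783 and 0.00242). Krt18, the other, did not pass (0.348). Of 11 squamous epithelial genes only 3 were tested in either model, of which 2 rose in primary tumor TIMs (median 4.98) and none passed by edgeR in LN4K1 lung TIMs (median 0.80). Dsg3 and Pkp1 were at 0 counts in every library.

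**Figure D5:**
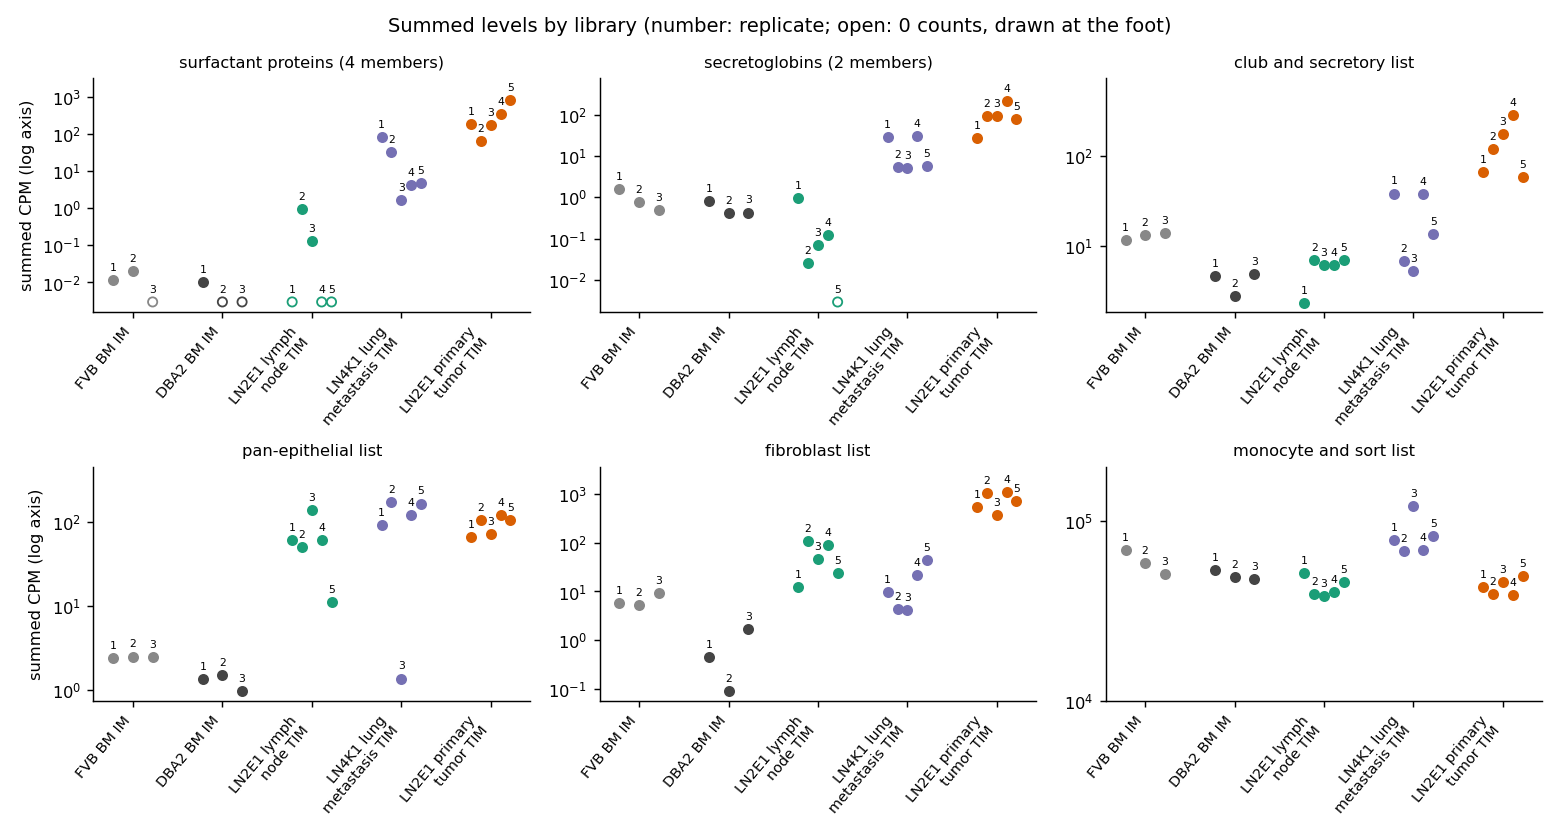
Summed level (CPM, log axes) of the 4 surfactant genes, the 2 secretoglobins and 4 marker lists in each of the 21 libraries, numbered by replicate. LN4K1 lung library 3 is low for the pan-epithelial list (1.36 CPM) and high for the monocyte list (122130 CPM), and the fibroblast list is highest in primary tumor TIMs (384 to 1137 CPM).

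Markers of other cells were read beside the members. All 11 fibroblast genes rose in primary tumor TIMs (median 11.75 as fitted, 9.94 with bounds), and 4 of 8 rose in LN4K1 lung TIMs (6.54 and 5.30), where their summed level was 4.24 to 44.5 CPM. In lymph node TIMs the summed level of the same 11 genes was 12.2 to 108 CPM, with 5.25 to 9.16 CPM in FVB BM IMs. Col3a1 was at 375 ± 154 CPM in primary tumor and 7.85 ± 10.8 CPM in LN4K1 lung TIMs. Among primary tumor libraries fibroblast genes were highest in library 4 (1137 CPM) and surfactant genes in library 5. Of 9 endothelial genes 3 rose and 1 fell in primary tumor TIMs (median 1.79), and 4 rose and 1 fell in LN4K1 lung TIMs (median 3.00). Of 8 alveolar macrophage genes 2 rose and 2 fell in each model (medians 0.28 and 1.05). Of 8 neutrophil genes 1 rose and 5 fell in each (medians -2.65 and -2.05). Both red blood cell genes tested fell in primary tumor TIMs (median -3.25), the one tested in LN4K1 lung TIMs did not pass (-1.82), and Hba-a2 was at 0 counts in every library. Of 7 monocyte and sort markers 4 rose and 3 fell in primary tumor TIMs (median 0.65), and 3 rose and 2 fell in LN4K1 lung TIMs (median 0.62). The part of each of these cell types in the levels of the 8 genes was not tested.

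The genes whose log2 CPM over the 21 libraries was most like that of the members were sought among 15411 genes, leaving out the members, by Pearson's r. Since the groups differ so widely, r mostly reflects the groups, and the libraries of a group share their source. Most like the summed surfactant genes were Epn3 (r = 0.958), Wfdc2 (0.952), Irx3 (0.944), Bpifb1 (0.943) and Aqp5 (0.941). Wfdc2, a secreted protease inhibitor of airway epithelium, had means of 15.6 CPM in primary tumor and 8.80 CPM in LN4K1 lung TIMs. Most like the summed secretoglobins were Bpifb1 (r = 0.905), Shroom3 (0.896), Syde1 (0.884), Mfap4 (0.883) and Mal2 (0.880). For Ager they were S100g (r = 0.907), Igfbp4 (0.873), Zeb1 (0.846), Gtdc2 (0.837) and Cldn7 (0.837).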

How the data were processed

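RNA of sorted inflammatory monocytes was amplified with a SMART ultra-low input kit and made into unstranded Nextera XT libraries. The authors trimmed reads with BBDuk, aligned them to mm10 with BBMap and, per the labels, used SAMtools 1.8 and featureCounts 1.5.2 (Subread). They deposited 1 table of raw counts per gene for 21 libraries, and 0 of its columns lacked a sample. Reads shared by near-identical genes or by opposite strands cannot be told apart in such counts.

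Groups came from the labels. Genes were filtered with edgeR's filterByExpr (minimum count 10, minimum total 15) and each comparison was fitted on its own groups with edgeR 4.0.16 (quasi-likelihood, robust) in R 4.3.3, with Benjamini-Hochberg adjustment over all genes tested. CPM used TMM factors. Log2 values for likeness and permutation tests had a prior count of 2. A fold against a group without counts was set against 3 counts over that group, and a group with 1 to 3 counts gave a ratio of pooled rates with an exact 95% interval. Intervals and limits cover counting error only. Per-length levels used exon lengths of GENCODE vM21, whose build (GRCm38) matches mm10. The fitting was tested on simulated data. No 2 libraries agreed within sampling noise.

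The 8 members, the marker lists and the tests were chosen with earlier results of these data known, and the direct comparison of LN4K1 lung with LN2E1 primary tumor TIMs was added after the data were seen. Besides the members, the text names from each list the up to 3 genes with the largest change past the test and the up to 3 with the highest mean, the 5 genes most like each member profile, and markers at 0 in every library. Alternatives were DESeq2 size factors, other count filters, all 5 groups in 1 fit, a replicate block, DESeq2 1.42.0 (shares over the genes to which it gave an adjusted p) and leaving out each library. Cxcl15, Chil1, Cfap126, Spi1, Chil3, Plet1, Hbb-bs and Hbb-bt were not analysed here.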

Additional observations from a re-analysis of the deposited data

Results flagged for a closer look

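Among the 26 groups of a member examined, 10 had a library far from the others of its group by Dixon's criterion. Its nominal rate of about 1 in 20 groups holds for normally distributed values. These CPM were skewed and held zeros, so the 10 cannot be set against that rate. A group with counts in only 1 library meets the criterion whatever its level. The flagged values of a library are not independent of each other.

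In primary tumor TIMs, library 5 stood apart for Ager, at 20.7 CPM with the nearest library at 7.11 CPM, and for Cldn18, at 9.50 CPM with the nearest at 3.43 CPM. In LN4K1 lung TIMs, library 1 stood apart for Sftpa1, at 8.01 CPM with the nearest at 1.97 CPM, and library 2 for Cldn18, at 1.04 CPM with the nearest at 0.278 CPM.

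In lymph node TIMs, library 2 stood apart for Sftpa1 (0.238 CPM, nearest 0.0356 CPM), Sftpc (0.570 CPM, nearest 0.0950 CPM), Sftpb (0.0530 CPM), Sftpd (0.0662 CPM) and Cldn18 (0.0132 CPM), the last 3 with all other libraries at 0. Library 1 stood apart for Scgb1a1, at 0.981 CPM with the nearest at 0.123 CPM, and held no surfactant count.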

How the results depend on the processing

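In primary tumor TIMs against FVB BM IMs, 2 members were DEGs and 8 passed an adjusted p of 0.05. The DEG count was 1 with a filter of 1 count in total, 0 with at least 10 counts in every library, 8 with either form of DESeq2 and 0 to 4 when a library was left out. Requiring 10 counts in every library left few members to test, so that 2 (primary tumor), 0 (lymph node against FVB marrow), 1 (LN4K1 lung against DBA2 marrow), 0 (lymph node against primary tumor) and 4 (LN4K1 lung against primary tumor) passed. In lymph node TIMs against FVB BM IMs, 1 member passed, 0 with the filter of 1 count and 0 to 2 when a library was left out. In LN4K1 lung TIMs against DBA2 BM IMs, DESeq2 gave 3 DEGs with shrunken and 5 with unshrunken fold changes, leaving out a library gave 3 to 7 members passing, and the log2 fold change of Ager ran from -0.18 (without library 2) to 0.91. In lymph node against primary tumor TIMs, the DEG count was 1 with all 5 groups in 1 fit, 4 with shrunken and 8 with unshrunken DESeq2. In LN4K1 lung against primary tumor TIMs, DESeq2 gave 1 DEG either way, and leaving out a library gave 4 to 7 passing. In the interaction, 1 member passed with unshrunken DESeq2 and 0 to 1 when a library was left out. DESeq2 with shrunken fold changes was not run for the interaction. The causes of these changes were not tested beyond the smaller number of genes or libraries.

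Libraries of different groups share replicate numbers, and correlations of same-numbered libraries ran from -0.297 to 0.422, so the numbers were not taken as pairs. With the number as a replicate block, 0 members were DEGs and 8 passed in primary tumor TIMs, 0 passed in lymph node against FVB marrow (Ager -5.07, edgeR's adjusted p = 0.147), 4 in LN4K1 lung against DBA2 marrow, 8 in lymph node against primary tumor, 6 in LN4K1 lung against primary tumor and 0 in the interaction. In lymph node TIMs against FVB marrow, numbers 1, 2 and 3 each correlated best with their own number (r = 0.280, 0.0807 and 0.297). The other lymph node libraries had no marrow library of their number. Among LN4K1 lung levels per length, Sftpa1 moved from rank 5 to 7, Sftpd from 7 to 6 and Ager from 6 to 5 with the longest transcript as length. Depth limits the marrow and lymph node values, where 1 count was the whole signal of several members.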
